A study of Mus musculus with 10 samples.

Results

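Forkhead genes outside the FOXA group were followed in RNA sequencing of mouse liver. The group was fixed by name and held 10 genes, Foxo1, Foxo3, Foxo4, Foxm1, Foxp1, Foxk1, Foxk2, Foxq1, Foxj3 and Foxn3, out of 16697 gene entries in the table. All 10 were present, and all 10 passed the filter on low values, which asked for 1 FPKM or more in 3 or more libraries. FPKM divide the fragments of a gene by its length and by library size. The 10 libraries came from 4 normal livers (NL), 3 tumours raised with c-MYC plus the empty pT3-EF1α vector (c-MYC), and 3 tumours raised with c-MYC plus FOXO1AAA, a constitutively active FOXO1 carrying a MYC tag (c-MYC/FOXO1AAA). The plasmids were delivered to hepatocytes by hydrodynamic tail vein injection with the sleeping beauty transposase, and the elongation factor 1 alpha promoter drove both transgenes. NL mice were wild type, and no injection is described for them. The labels give the strain of every sample as C57BL/6 and the genotype as WT, whereas the extraction protocol names FVB wild-type livers, so the strain is not settled. One description of the control mixture also names MCL1, which the labels do not. Ages are not given in the labels, and the species of the FOXO1AAA sequence is not given in the sources used here. The methods count mice, but no label ties a library to 1 animal, so p-values measure the spread between these libraries.

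Forkhead factors bind DNA through a winged-helix domain whose recognition helix lies in the major groove. FOXO1, FOXO3 and FOXO4 are the effectors of insulin signalling in liver, where AKT phosphorylates them and moves them out of the nucleus. FOXM1 drives genes of the G2 and M phases and is low in resting hepatocytes. FOXK1 and FOXK2 act in the nutrient response, FOXP1 and FOXN3 are mainly repressors, and FOXQ1 and FOXJ3 are known mainly from other tissues.

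The FOXO members share the sites at which AKT acts, which are the sites replaced by alanine in an AAA mutant. Each was found in its GENCODE M21 transcript (GRCm38) as an arginine-rich stretch of 6 codons, printed on the coding strand from 5′ to 3′, and capitals mark the codon of the phosphorylated residue.
Foxo1, codon 24: cggcagcgctcctgtACC
Foxo1, codon 253: cggagaagagctgcgTCC
Foxo1, codon 316: cgtcctcgaaccagcTCA
Foxo3, codon 32: cggccacgctcctgtACG
Foxo3, codon 252: cggcggcgtgcggtcTCC
Foxo3, codon 314: cgctcgcgcaccaatTCC
Foxo4, codon 32: cgtccgcgatcctgcACC
Foxo4, codon 197: cgccgcagggctgccTCC
Foxo4, codon 262: cgtccacgaagcagtTCA
These are reference sequences. The table gives totals by gene, so it does not show whether a Foxo1 read came from the endogenous gene or from the plasmid, nor which form of these codons it carried. If the plasmid sequence is not that of the mouse, its reads may be counted only in part, and the Foxo1 level, fold change and share in c-MYC/FOXO1AAA given here would then be too low. Foxo1 reads were divided by a length of 8665 bp, and the length of the plasmid sequence is not given in the sources used here. If it is shorter, these values would also be too low per transcript.

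The libraries held 13123719 to 20547746 recovered reads. Hepatocyte markers were lower in the tumours, the sum of 8 markers being 81600 to 92200 FPKM in NL, 3320 to 5200 in c-MYC and 880 to 1560 in c-MYC/FOXO1AAA. Between tumours Cyp2e1 and Tat went against this sum, and the other hepatocyte markers were lower in c-MYC/FOXO1AAA. Cyp2e1 averaged 13.4 FPKM in c-MYC and 63.5 in c-MYC/FOXO1AAA (limma adjusted p = 0.0136). Tat averaged 0.947 and 4.47 FPKM (limma adjusted p = 0.000607). Other marker sums moved too. The sum of 6 stellate and fibroblast markers was 78.3 to 99.6 FPKM in NL, 10.6 to 34.0 in c-MYC and 354 to 446 in c-MYC/FOXO1AAA. The sum of 6 skeletal muscle markers was 1.28 to 2.34, 3.63 to 7.64 and 133 to 204 FPKM, with Myod1, Myog and Chrna1 having no reads in NL or c-MYC. The 4 lymphocyte markers present summed to 1.13 to 3.36, 1.12 to 1.54 and 8.28 to 12.9 FPKM. The 6 endothelial markers summed to 45.2 to 60.7, 9.81 to 17.3 and 26.3 to 41.0 FPKM, and the 6 macrophage and Kupffer markers to 189 to 338, 70.6 to 105 and 27.7 to 48.1 FPKM. The 4 cholangiocyte markers present summed to 2.36 to 4.63, 15.4 to 30.8 and 4.72 to 11.9 FPKM. The authors' scaling factors also differed by group, at 0.649 to 0.684 in NL, 1.256 to 1.295 in c-MYC and 1.454 to 1.502 in c-MYC/FOXO1AAA. Scaling every library to the same FPKM total instead moved the all-gene median on the log2 scale from 0.08 to 1.01 for c-MYC versus NL, from 0.03 to 0.20 for c-MYC/FOXO1AAA versus c-MYC and from 0.21 to 1.31 for c-MYC/FOXO1AAA versus NL. Directions that turn under that scaling are given beside each gene.

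Levels were first compared between members, per length. On the deposited FPKM, Foxn3 had the highest mean in NL at 37.3 ± 2.81 FPKM (SD, n = 4), followed by Foxo3 at 31.5 ± 1.81, and the ranges of these neighbours overlapped. Foxo4 at 16.2 FPKM lay below Foxo3 without overlap, and from Foxo4 downwards each gene overlapped the next, through Foxq1, Foxo1, Foxk2, Foxk1, Foxm1 and Foxj3 to Foxp1 at 3.00 FPKM. In c-MYC the order began with Foxm1 at 86.1 FPKM, above Foxo3 at 27.1 without overlap, and ended with Foxq1 at 1.26. In c-MYC/FOXO1AAA it began with Foxo1 at 83.1 FPKM, which overlapped Foxm1 at 76.3, and ended with Foxq1 at 0.239.

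The length by which the authors divided moved part of this order. It was recovered from the values and equalled an annotated transcript for 97.7% of matched genes. For Foxm1 the length was 598 bp, that of a retained-intron transcript (Foxm1-204), against 4652 bp for its longest coding transcript, a ratio of 7.78. For Foxn3 it was 1586 bp, again a retained-intron transcript (Foxn3-208), against 7705 bp, a ratio of 4.86, and for Foxo3 it was 2889 bp against 6848 bp, a ratio of 2.37. The other members had ratios of 1.0 to 1.03. With the longest coding length, Foxo4 led in NL at 16.2 FPKM and in c-MYC at 19.1 FPKM, in both groups without overlap with Foxo3, which came next. Foxn3 dropped to the fourth place in NL at 7.68 FPKM. Foxm1 became the lowest member in NL at 0.522 FPKM and the third in c-MYC at 11.1, and in c-MYC/FOXO1AAA it stood at 9.81, far under Foxo1 at 83.1. Comparisons of 1 gene between groups do not depend on this length where its reads come from the same transcripts in each group. For Foxo1 in c-MYC/FOXO1AAA that is not known, since reads may come from the plasmid.

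**Figure D1:**
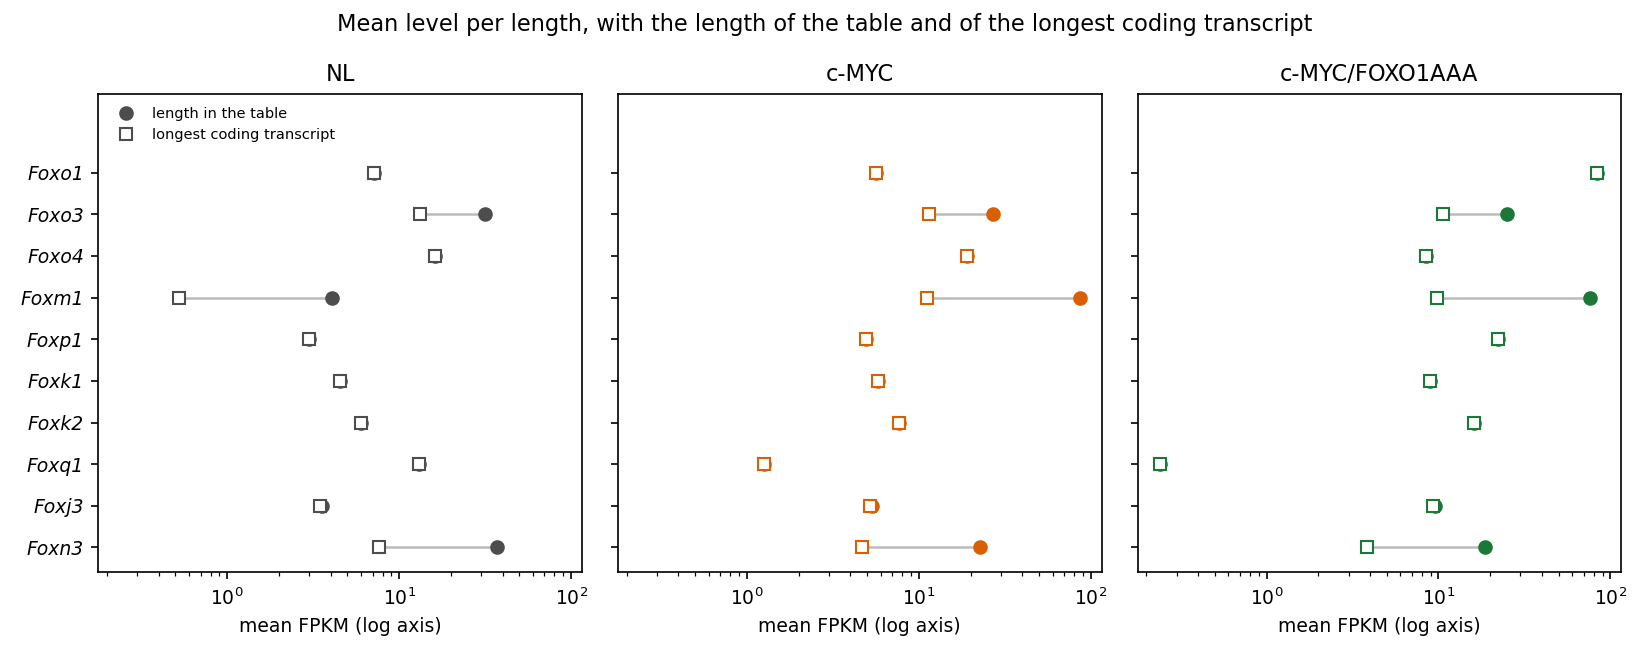
Mean FPKM (log axis) of the 10 forkhead genes in NL (n = 4), c-MYC (n = 3) and c-MYC/FOXO1AAA (n = 3). Filled circles use the gene length of the deposited table and open squares the longest coding transcript. Foxm1, Foxn3 and Foxo3 shift left by ratios of 7.78, 4.86 and 2.37, and the other genes lie within a ratio of 1.03.

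Comparisons were made for 3 pairs of groups with limma treat, which tested for a change above 1.5-fold with p-values adjusted over 14017 genes. c-MYC versus NL asks what the oncogene tumour changes, c-MYC/FOXO1AAA versus c-MYC asks what active FOXO1 adds, and c-MYC/FOXO1AAA versus NL sets the combined tumour against normal liver. The comparisons share libraries, so they are not independent of each other.

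In c-MYC versus NL, 2 of 10 members were called, Foxm1 higher and Foxq1 lower, where 48.1% of all genes tested were called, 24.5% higher and 23.6% lower. The groups did not overlap for 7 members, against 73.9% of all genes, with 4 of the 7 higher (39% of all genes) and 3 lower (34.9%). The median absolute log2 fold change was 0.47 for the members and 0.98 for all genes. In c-MYC/FOXO1AAA versus c-MYC, 4 of 10 members were called, where 28.7% of all genes were. Foxo1 and Foxp1 rose, with 15.9% of all genes called higher, and Foxo4 and Foxq1 fell, with 12.7% called lower. Foxo1 is the gene encoded on the injected plasmid. Its call in both comparisons of c-MYC/FOXO1AAA was therefore set by the design, although the counts of members include it. The tumour groups did not overlap for 7 members, against 63.4% of all genes, with 5 of the 7 higher (32.7% of all genes) and 2 lower (30.7%). In c-MYC/FOXO1AAA versus NL, 9 of 10 members were called, where 57.8% of all genes were, and all 10 did not overlap, against 80.1%, with 6 higher (44.1% of all genes) and 4 lower (36%). Foxo1, Foxm1, Foxp1, Foxk1, Foxk2 and Foxj3 were higher, with 31.2% of all genes called higher, and Foxo4, Foxq1 and Foxn3 were lower, with 26.6% called lower. With the same FPKM total, 6 members were called higher in c-MYC versus NL (Foxm1, Foxo4, Foxp1, Foxk1, Foxk2 and Foxj3) and 1 lower, and again 6 higher and 1 lower in c-MYC/FOXO1AAA versus NL. Over all genes that scaling made 78.8% of the called genes higher in c-MYC versus NL, against 51% as deposited, and 79.5% against 54% in c-MYC/FOXO1AAA versus NL. Relative to the median of all genes, the members whose sign depends on this scaling were low in both comparisons. Foxo1, Foxo3 and Foxn3 stood at -0.43, -0.31 and -0.80 in c-MYC versus NL on the log2 scale, and Foxo3, Foxo4 and Foxn3 at -0.54, -1.15 and -1.22 in c-MYC/FOXO1AAA versus NL.

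**Figure D2:**
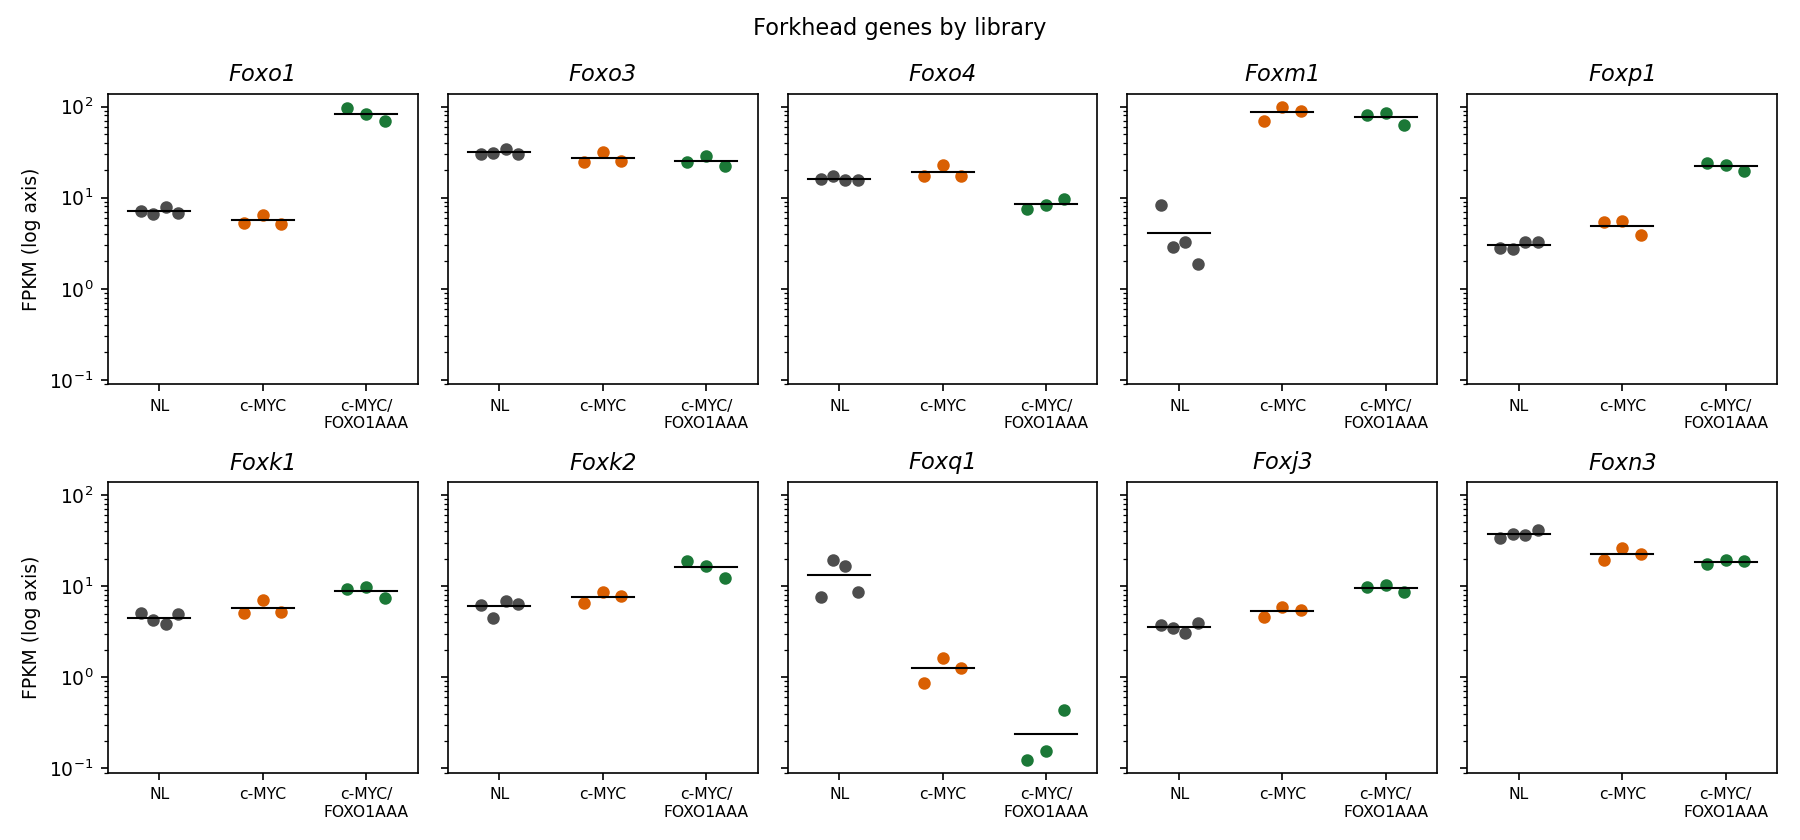
FPKM (log axis) of each forkhead gene in each library, with a point per library and a line at the group mean. Foxo1 and Foxp1 lie highest in the 3 c-MYC/FOXO1AAA libraries, Foxm1 is high in both tumour groups, and Foxq1 falls from NL through c-MYC to c-MYC/FOXO1AAA without overlap.

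Foxo1 (ENSMUSG00000044167.6, chr3:52268336-52353221, plus strand), the gene encoded in mutant form on the plasmid, was measured first as a check of the labels. It was 7.17, 6.69, 7.87 and 6.82 FPKM in NL 1 to 4, 5.26, 6.46 and 5.17 in c-MYC 1 to 3, and 95.6, 83.6 and 70.1 in c-MYC/FOXO1AAA 1 to 3. All c-MYC/FOXO1AAA libraries were above all others, and all c-MYC libraries were below all NL libraries. The log2 fold change between tumour groups was 3.88 ± 0.14 (SE), with an adjusted p of 3.4e-08 by limma, and it was 3.77 to 4.00 on leaving out any 1 library. For c-MYC versus NL it was -0.35 ± 0.13 with an adjusted p of 1.0, and it turned to 0.58 with the same FPKM total. In bulk tissue, fewer cells of a type and less RNA per cell cannot be told apart.

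Foxo3 (ENSMUSG00000048756.11, chr10:42181841-42276755, minus strand), the FOXO member with the highest FPKM in NL on the deposited length, had the smallest log2 fold change of the members in each comparison on the deposited scale. It was 30.2, 31.3, 34.1 and 30.3 FPKM in NL, 24.5, 31.4 and 25.2 in c-MYC, and 24.8, 28.4 and 22.5 in c-MYC/FOXO1AAA. The tumour groups overlapped, c-MYC 2 reached into the NL range, and c-MYC/FOXO1AAA lay below NL throughout. Between tumours the difference was -0.10 on the log2 scale with a 95% confidence interval of -0.38 to 0.18. That estimate turned to 0.07 with the same FPKM total, to 0.06 under quantile normalization and to 0.01 without c-MYC 2. Against NL it was -0.22 in c-MYC, from -0.48 to 0.03, and -0.32 in c-MYC/FOXO1AAA, from -0.58 to -0.06, and with the same FPKM total these became 0.70 and 0.77. None of these passed limma treat, each with an adjusted p of 1.0.

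Foxo4 (ENSMUSG00000042903.8, chrX:101254528-101260873, plus strand) differed from Foxo3 in its pattern. It was 16.0, 17.5, 15.6 and 15.7 FPKM in NL, 17.4, 22.8 and 17.1 in c-MYC, and 7.46, 8.32 and 9.58 in c-MYC/FOXO1AAA. Every c-MYC/FOXO1AAA library was below every other library, while NL and c-MYC overlapped. The c-MYC/FOXO1AAA level was 2.25-fold below that of the c-MYC tumours, with an adjusted p of 0.00389 by limma and a range of 0.00259 to 0.0189 on leaving out any 1 library. Against NL the log2 fold change was -0.94 ± 0.13 with an adjusted p of 0.0179. This call was lost without c-MYC/FOXO1AAA 1 (limma adjusted p = 0.0767), and with the same FPKM total the value turned to 0.16. For c-MYC versus NL it was 0.23 ± 0.13, with a limma adjusted p of 1.0, and with the same FPKM total it was 1.15 and called (0.00146).

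Within-library ratios do not depend on how the libraries were scaled. The log2 ratio of Foxo1 to Foxo3 was -2.14 ± 0.07 (SD, n = 4) in NL, -2.26 ± 0.04 in c-MYC and 1.72 ± 0.20 in c-MYC/FOXO1AAA. The log2 ratio of Foxo4 to Foxo3 was -0.96 ± 0.12 in NL, -0.51 ± 0.05 in c-MYC and -1.58 ± 0.30 in c-MYC/FOXO1AAA. All groups were apart for the second ratio, so that Foxo4 stood higher against Foxo3 in c-MYC than in NL by 0.45, while the difference of c-MYC/FOXO1AAA from c-MYC was -1.07. For the Foxo1 to Foxo3 ratio, c-MYC and NL overlapped, with an exact 2-sided permutation p of 0.114. The other comparisons of both ratios gave an exact permutation p of 0.0571 for 4 against 3 libraries and 0.1 for 3 against 3, the smallest these designs can give, and all were 0.147 after adjustment over 9 ratio tests. These tests therefore could not pass 0.05.

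Summed over Foxo1, Foxo3 and Foxo4, the FPKM were 52.8 to 57.5 in NL, 47.2 to 60.7 in c-MYC and 102 to 128 in c-MYC/FOXO1AAA. Foxo1 supplied 12.1 to 13.7% of this sum in NL, 10.7 to 11.2% in c-MYC and 68.6 to 74.8% in c-MYC/FOXO1AAA. With the longest coding lengths its share was 17.9 to 20.8%, 15.2 to 16.0% and 78.6 to 84.2%. The sum of Foxo3 and Foxo4 alone was 46.0 to 49.6, 41.9 to 54.2 and 32.1 to 36.7 FPKM, with c-MYC/FOXO1AAA below both other groups on the deposited scale.

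**Figure D3:**
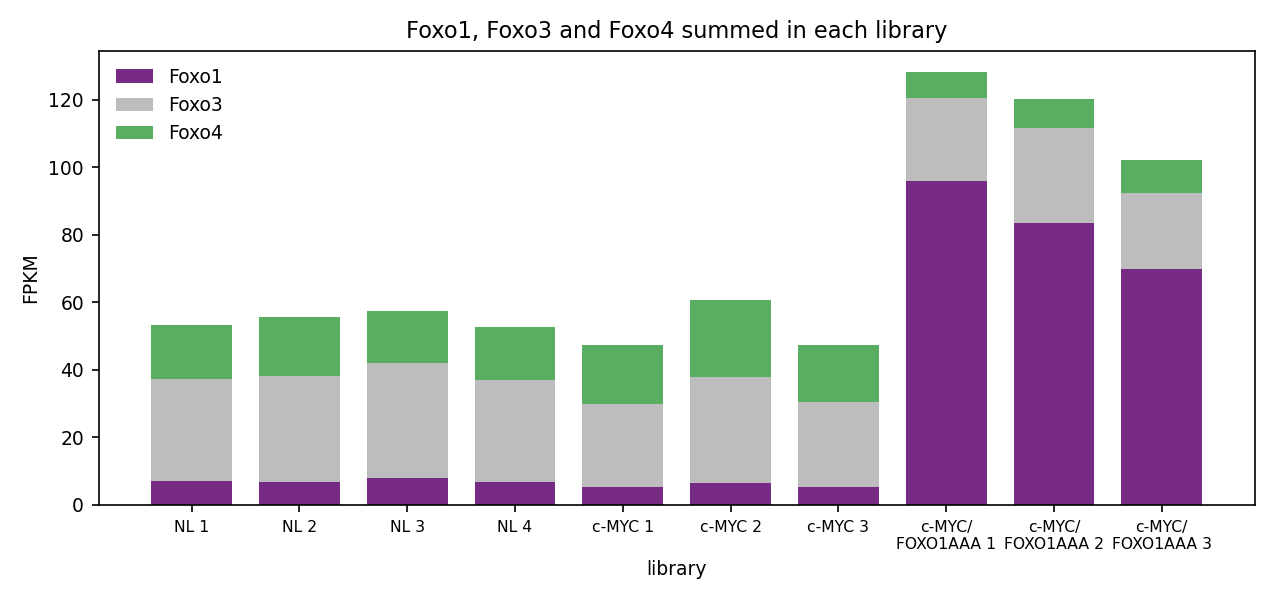
FPKM of Foxo1, Foxo3 and Foxo4 stacked for each of the 10 libraries, with the length of the deposited table. The total lies between 47.2 and 60.7 in NL and c-MYC and between 102 and 128 in c-MYC/FOXO1AAA, where Foxo1 makes up 68.6 to 74.8%.

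Genes that act on FOXO proteins were described from a list of 32 kinases, phosphatases, acetylases, ligases and 14-3-3 adaptors, of which 31 were tested. In c-MYC versus NL, 9 were higher and 5 lower, where 24.5% of all genes were called higher and 23.6% lower. The list median log2 fold change was 0.31 against 0.08 for all genes. Skp2, the ubiquitin ligase subunit that targets FOXO1, was higher, at 22.3 ± 4.48 FPKM against 1.64 ± 0.99 in NL (limma adjusted p = 1.29e-05). Skp2 is also among the FOXM1 targets listed below, and Cdk2 is in this list and among the FOXM1 partners. Plk1 is both a listed FOXM1 partner and a listed target, so the lists are not independent. Kat2b, an acetyltransferase, was lower, at 5.18 ± 1.17 against 23.9 ± 2.28 FPKM (limma adjusted p = 5.22e-06). With the same FPKM total, 20 were called higher and 1 lower, where 7061 of all 14017 genes were called higher and 1895 lower.

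Between the tumours, 6 of the 31 regulators were higher and 1 lower in the c-MYC/FOXO1AAA group, where 15.9% of all genes were called higher and 12.7% lower, so the share called higher was near that of all genes. The list median was 0.16 against 0.03. Sgk2, a kinase of the same family as AKT, was the only one lower, at 0.822 ± 0.88 FPKM against 21.1 ± 5.61 in c-MYC (limma adjusted p = 6.05e-05). Without c-MYC/FOXO1AAA 3 the mean of Sgk2 in that group was 0.314 FPKM, and the log2 fold change lay between -6.05 and -4.69 on leaving out any 1 library. The stellate, fibroblast, muscle, lymphocyte and endothelial marker sums given above were higher and the hepatocyte sum lower in the same comparison, and their part in these changes was not tested.

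Of 25 genes known as FOXO targets, 11 rose and 4 fell between c-MYC and c-MYC/FOXO1AAA, where 15.9% of all genes were called higher and 12.7% lower. The share called lower was thus near that of all genes. The list median log2 fold change was 0.98 against 0.03 for all genes. In c-MYC versus NL, 3 were higher and 11 lower, with a median of -0.71, where 24.5% of all genes were called higher and 23.6% lower. With the same FPKM total the median turned to 0.22, with 9 higher and 9 lower. That scaling called 7061 of all 14017 genes higher and 1895 lower. The 4 lower between tumours were Irs2, Cat, Sod2 and Insr, which serve insulin signalling and the breakdown of reactive oxygen, and apart from Irs2 they are named here after their values were seen. Cdkn1a, the cell cycle inhibitor p21, was 1.31 ± 0.577 FPKM in NL, 24.5 ± 5.36 in c-MYC and 47.5 ± 4.19 in c-MYC/FOXO1AAA, and it was called higher in both tumour groups against NL (limma adjusted p = 1.23e-06 and 1.37e-07). Its log2 fold change of 0.98 between tumours did not pass the test (limma adjusted p = 0.328).

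Foxm1 (ENSMUSG00000001517.14, chr6:128362967-128376146, plus strand) rose in both tumour groups. It was 8.22, 2.86, 3.28 and 1.88 FPKM in NL, 69.7, 99.6 and 89.0 in c-MYC, and 81.6, 85.2 and 62.1 in c-MYC/FOXO1AAA. Both tumour groups were above NL without overlap, and they overlapped each other. The log2 fold change against NL was 4.62 ± 0.40 in c-MYC (limma adjusted p = 6.52e-06) and 4.45 ± 0.40 in c-MYC/FOXO1AAA (limma adjusted p = 5.84e-06). Between tumours it was -0.17 with a 95% confidence interval of -1.13 to 0.78, and it turned to 0.07 under quantile normalization. NL 1 stood above the other NL libraries with 53 reads of Foxm1, and without it the NL mean dropped from 4.06 to 2.67 FPKM, while the fold change against NL lay between 4.32 and 5.03 in c-MYC on leaving out any 1 library.

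The 26 genes listed as FOXM1 targets, which run chromosome segregation and cell division, stood higher in both tumour groups than in NL, as Foxm1 did. All 26 were called higher in c-MYC than in NL, with a median log2 fold change of 4.92 against 0.08 for all genes, and all 26 in c-MYC/FOXO1AAA, with 4.69 against 0.21. Of all genes tested, 24.5% and 31.2% were called higher in these comparisons. The counts of 26 were the same under each of the 3 other scalings. Their summed FPKM were 139, 66.2, 91.3 and 68.7 in NL 1 to 4, 1080, 1210 and 1310 in c-MYC, and 998, 1050 and 937 in c-MYC/FOXO1AAA. NL 1, the normal library with the highest Foxm1, also had the highest target sum, and the c-MYC/FOXO1AAA sums lay below the c-MYC sums. Ccnb1, cyclin B1, was 57.5 ± 4.46 FPKM in c-MYC against 1.33 ± 1.46 in NL, and Bub1b, a spindle checkpoint kinase, was 28.6 ± 5.43 FPKM in c-MYC/FOXO1AAA against 0.638 ± 0.465. Without NL 1 the NL mean of Ccnb1 was 0.615 FPKM.

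Between the tumour groups, 1 of the 26 targets was called, where 28.7% of all genes were. Cdc25b, a phosphatase that activates CDK1, was higher in c-MYC/FOXO1AAA at 10.4 ± 1.04 FPKM against 3.16 ± 0.207 (limma adjusted p = 0.0302). The call was lost, with adjusted p up to 0.0848, on leaving out c-MYC 1, c-MYC 2, c-MYC 3, c-MYC/FOXO1AAA 1 or c-MYC/FOXO1AAA 2. The list median was -0.39 between tumours against 0.03 for all genes.

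**Figure D4:**
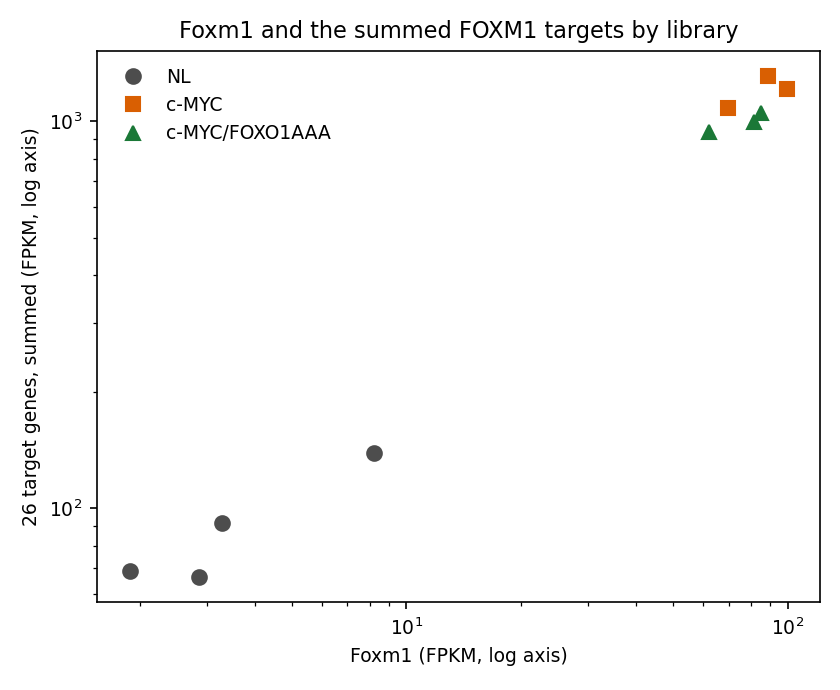
Foxm1 against the sum of 26 FOXM1 target genes in each library (FPKM, log axes), with a point per library. The 4 NL libraries lie at 66.2 to 139 on the target axis and the 6 tumour libraries at 937 to 1310, with NL 1 the highest of the normal livers on both axes.

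Among 23 partners and regulators of FOXM1, 22 were tested, of which 14 rose and 2 fell in c-MYC against NL, and 17 rose and 2 fell in c-MYC/FOXO1AAA against NL. Of all genes tested, 24.5% were called higher and 23.6% lower in c-MYC versus NL, and 31.2% and 26.6% in c-MYC/FOXO1AAA versus NL. The list medians were 1.88 and 2.38, against 0.08 and 0.21 for all genes. Mybl2, the B-MYB partner of FOXM1 at mitotic genes, was 20.8 ± 2.19 FPKM in c-MYC against 0.805 ± 0.786 in NL (limma adjusted p = 0.000127), where the mean was 0.459 FPKM without NL 1. Ccnd1, cyclin D1, went the other way, at 13.1 ± 4.15 FPKM in NL, 0.917 ± 0.13 in c-MYC (limma adjusted p = 4.36e-06) and 2.18 ± 0.766 in c-MYC/FOXO1AAA (limma adjusted p = 9.99e-05). Between tumours 4 were higher and 0 lower, where 15.9% of all genes were called higher and 12.7% lower. The share called higher was thus near that of all genes. The largest change was that of Cdkn2a, the locus of p16 and ARF, at 12.5 ± 2.75 FPKM against 0.922 ± 0.606 in c-MYC (limma adjusted p = 0.000113). Without c-MYC 3 the c-MYC mean of Cdkn2a was 0.579 FPKM. The other 3 called higher were Rb1, Cdk6 and Rbl2, named here after their values were seen.

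Foxp1 (ENSMUSG00000030067.17, chr6:98925338-99522721, minus strand), a repressor with known roles in lymphocytes and endothelium, was, with Foxo1, 1 of the 2 members called higher between tumours. It was 2.80, 2.71, 3.23 and 3.28 FPKM in NL, 5.42, 5.54 and 3.88 in c-MYC, and 24.3, 22.7 and 19.8 in c-MYC/FOXO1AAA. The groups stood in that order without overlap. It rose by 2.18 ± 0.17 on the log2 scale between tumours (limma adjusted p = 1.32e-05) and by 2.89 ± 0.16 against NL (limma adjusted p = 1.53e-07), and both calls were kept in all 21 alternatives. For c-MYC versus NL it was 0.71 ± 0.16, which did not pass the test (limma adjusted p = 0.373). The lymphocyte marker sum was 8.28 to 12.9 FPKM in c-MYC/FOXO1AAA against 1.12 to 1.54 in c-MYC and the endothelial sum 26.3 to 41.0 against 9.81 to 17.3, and their part in the change of Foxp1 was not tested. The endothelial sums are not made up alike, since Clec4g, a marker of sinusoidal endothelium, averaged 33.6 FPKM in NL and 0.571 in c-MYC/FOXO1AAA, and Cdh5, VE-cadherin, averaged 4.61 in NL and 26 in c-MYC/FOXO1AAA. Between tumours Cdh5 rose from 4.61 to 26 FPKM and was called (limma adjusted p = 0.000143). Pecam1, Kdr and Stab2 were lower in c-MYC/FOXO1AAA, at 3.59, 0.991 and 0.226 FPKM against 5.70, 1.76 and 0.388 in c-MYC, and none was called. Clec4g and Lyve1 were higher, with means under 1 FPKM in both tumour groups.

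Foxn3 (ENSMUSG00000033713.12, chr12:99190078-99563582, minus strand), known as a checkpoint suppressor and transcriptional repressor, was highest in normal liver. It was 34.0, 37.5, 36.9 and 40.9 FPKM in NL, 19.4, 26.2 and 22.7 in c-MYC, and 17.5, 19.4 and 18.8 in c-MYC/FOXO1AAA. Both tumour groups lay below NL without overlap, and they met at 19.4 FPKM. The log2 fold change was -0.72 ± 0.11 for c-MYC versus NL (limma adjusted p = 0.231) and -1.0 ± 0.11 for c-MYC/FOXO1AAA versus NL (limma adjusted p = 0.0042). With the same FPKM total these turned to 0.21 and 0.09, and under quantile normalization the second was not called (limma adjusted p = 0.13). Between tumours it was -0.28, with a 95% confidence interval of -0.55 to -0.01 and a limma adjusted p of 1.0.

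The FOXK pair, which recruit the SIN3 and BAP1 complexes to chromatin, was higher in c-MYC/FOXO1AAA than in NL. Foxk1 (ENSMUSG00000056493.9, chr5:142401497-142462011, plus strand) was 5.03, 4.22, 3.83 and 4.91 FPKM in NL, 5.08, 7.12 and 5.14 in c-MYC, and 9.41, 9.85 and 7.46 in c-MYC/FOXO1AAA. Its groups did not overlap, with a gap of only 5.03 to 5.08 between NL and c-MYC. The log2 fold change of c-MYC/FOXO1AAA versus NL was 0.98 ± 0.17 (limma adjusted p = 0.0354). This call was lost, with adjusted p of 0.0676 to 0.116, without NL 2, NL 3, c-MYC/FOXO1AAA 1 or c-MYC/FOXO1AAA 2, and also with a pseudocount of 1, with equal medians and under quantile normalization (0.0864 to 0.11). The values of 0.35 for c-MYC versus NL and 0.63 between tumours did not pass the test.

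Foxk2 (ENSMUSG00000039275.9, chr11:121259990-121309896, plus strand) was 6.18, 4.50, 6.87 and 6.43 FPKM in NL, 6.54, 8.54 and 7.89 in c-MYC, and 19.1, 16.8 and 12.4 in c-MYC/FOXO1AAA. NL and c-MYC overlapped, and every c-MYC/FOXO1AAA library was above both. Against NL the log2 fold change was 1.42 ± 0.19 (limma adjusted p = 0.00128). Between tumours it was 1.06 ± 0.20, just outside the threshold with a limma adjusted p of 0.0659. That adjusted p was 0.0379 without NL 2 and 0.0177 without c-MYC/FOXO1AAA 3, and it reached 0.228 without c-MYC/FOXO1AAA 1. Foxk2 was also called between tumours with the same FPKM total (limma adjusted p = 0.0252), under quantile normalization (0.0359), with no fold threshold (0.00103) and with limma voom (0.0267).

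The log2 ratio of Foxk1 to Foxk2 was -0.40 ± 0.32 (SD, n = 4) in NL, -0.41 ± 0.18 in c-MYC and -0.84 ± 0.16 in c-MYC/FOXO1AAA. The tumour groups did not overlap, with an exact permutation p of 0.1, the smallest for 3 against 3, and 0.147 after adjustment. c-MYC/FOXO1AAA and NL overlapped (exact permutation p = 0.171, 0.192 after adjustment). The value for c-MYC versus NL was -0.01, and its sign depended on which library was left out.

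Foxj3 (ENSMUSG00000032998.16, chr4:119537004-119629119, plus strand), known from muscle where it acts on Mef2c, stood higher in each group from NL through c-MYC to c-MYC/FOXO1AAA. It was 3.77, 3.44, 3.10 and 3.95 FPKM in NL, 4.6, 5.96 and 5.50 in c-MYC, and 9.75, 10.2 and 8.56 in c-MYC/FOXO1AAA. No groups overlapped. The step of 1.42 ± 0.14 from NL to c-MYC/FOXO1AAA on the log2 scale passed the test (limma adjusted p = 0.000189). The part steps of 0.58 from NL to c-MYC and 0.83 from c-MYC to c-MYC/FOXO1AAA did not (limma adjusted p = 0.74 and 0.187). Skeletal muscle markers moved in the same direction, and their part in the change of Foxj3 was not tested.

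Foxq1 (ENSMUSG00000038415.10, chr13:31556134-31560976, plus strand), known from hair follicle differentiation, fell in each comparison. It was 7.58, 19.4, 16.8 and 8.61 FPKM in NL, 0.868, 1.64 and 1.27 in c-MYC, and 0.125, 0.156 and 0.435 in c-MYC/FOXO1AAA, where it rested on 12 to 39 reads. No groups overlapped,, although NL itself ranged from 7.58 to 19.4 FPKM. The log2 fold change was -3.31 ± 0.48 for c-MYC versus NL (limma adjusted p = 0.000335) and -5.89 ± 0.48 for c-MYC/FOXO1AAA versus NL (limma adjusted p = 1.65e-06). Between tumours it was -2.58 ± 0.51 (limma adjusted p = 0.00657), a call that was lost with a pseudocount of 1 FPKM (adjusted p = 0.554) and with limma voom on the recovered reads (adjusted p = 0.0679). Without c-MYC/FOXO1AAA 3 the mean of that group was 0.140 FPKM in place of 0.239. The hepatocyte marker sum fell in the same order of groups, although Cyp2e1 and Tat rose between tumours. The part of that sum in the fall of Foxq1 was not tested.

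**Figure D5:**
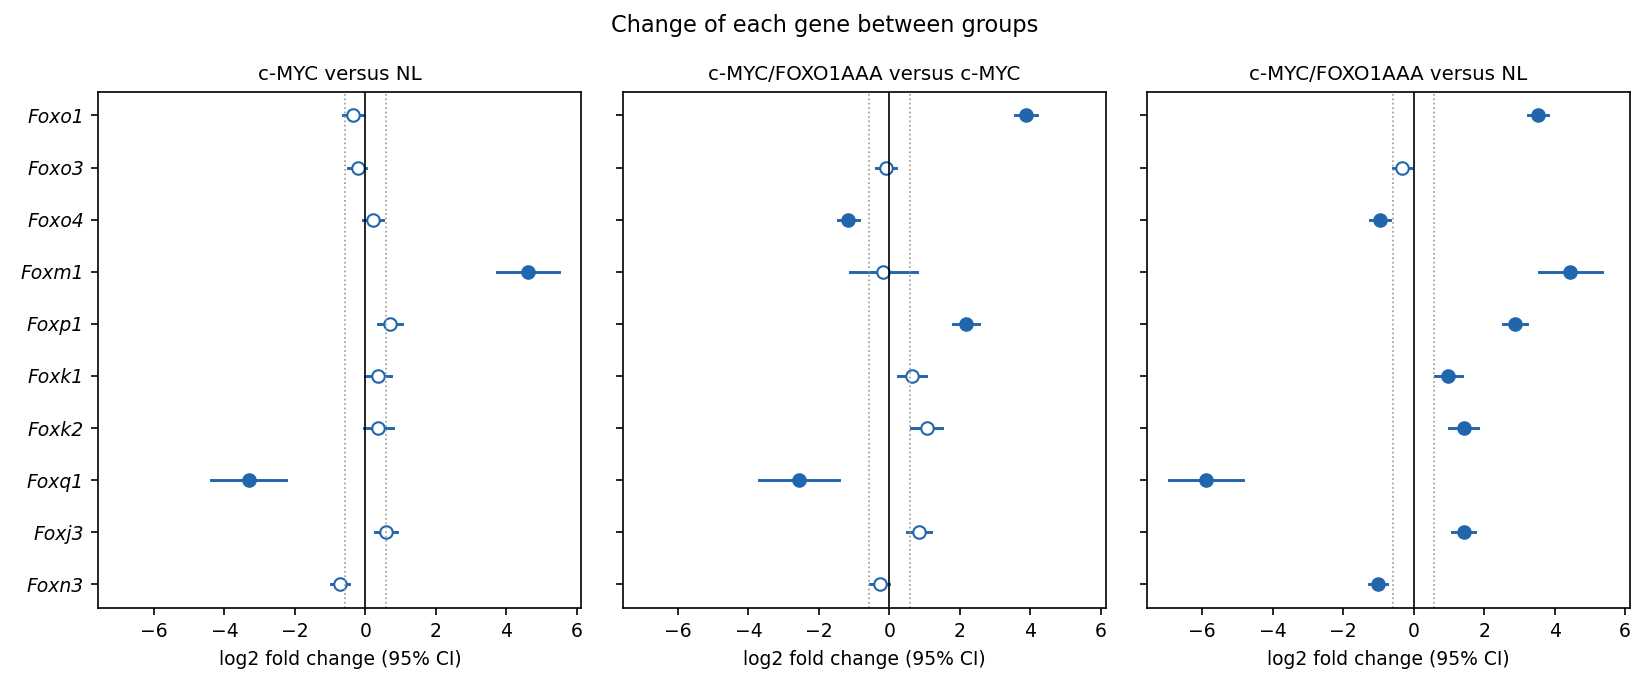
Log2 fold change of each forkhead gene with its 95% confidence interval in the 3 comparisons, from limma. Filled circles passed limma treat at an adjusted p under 0.05, open circles did not, and dotted lines mark a 1.5-fold change. The filled circles number 2, 4 and 9 from left to right, with Foxm1 at 4.62 and Foxq1 at -3.31 in c-MYC versus NL.

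Among 21 partners of the FOXK, FOXP and FOXN3 proteins, which are mostly subunits of the SIN3, NuRD and BAP1 complexes, 7 were higher and 1 lower in c-MYC than in NL, where 24.5% of all genes were called higher and 23.6% lower. The list median was 0.74 against 0.08 for all genes. In c-MYC/FOXO1AAA versus NL, 9 were higher and 1 lower, where 31.2% of all genes were called higher and 26.6% lower, with a median of 0.69 against 0.21. With the same FPKM total these counts were 17 and 0, and 19 and 0. Of all 14017 genes, that scaling called 7061 higher and 1895 lower in c-MYC versus NL, and 8129 and 2099 in c-MYC/FOXO1AAA versus NL. Mta1, a NuRD subunit, was 60.7 ± 9.52 FPKM in c-MYC/FOXO1AAA against 19.8 ± 2.99 in NL (limma adjusted p = 2.71e-05). Suds3, a SIN3 subunit that binds FOXK proteins, was lower in both tumour groups, at 38.9 ± 1.98 and 34.2 ± 0.906 FPKM against 75 ± 2.54 in NL (limma adjusted p = 0.00117 and 4.66e-05), and neither call was kept with the same FPKM total or under quantile normalization. Between tumours, where 15.9% of all genes were called higher and 12.7% lower, 0 were higher and 1 was lower by limma treat. That gene was Nfatc2, a lymphocyte transcription factor that binds FOXP proteins, at 0.373 ± 0.112 FPKM in c-MYC/FOXO1AAA against 3.11 ± 0.756 in c-MYC and 0.140 ± 0.0751 in NL (limma adjusted p = 0.00157 between tumours).

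Of 34 other mouse forkhead genes listed, 14 were in the table and 9 passed the filter. In c-MYC versus NL 2 were higher and 4 lower, and between tumours 3 were higher and 2 lower. Of all genes tested, 24.5% were called higher and 23.6% lower in c-MYC versus NL, and 15.9% and 12.7% between tumours. Foxj1, the regulator of motile cilia, was 0.671 ± 0.559 FPKM in NL, 11 ± 4.06 in c-MYC and 0.161 ± 0.0379 in c-MYC/FOXO1AAA, so it was called higher and then lower (limma adjusted p = 0.000197 and 4.4e-05). Foxp2, the paralog of Foxp1 and a repressor, had 24 to 60 reads in NL, 0 reads in all c-MYC libraries and 73 to 148 reads in c-MYC/FOXO1AAA. Its NL level of 6.18 FPKM was at least 30.2-fold higher than 3 reads per c-MYC library would give. Foxd1, a gene of the renal and retinal stroma in development, had 0 or 1 read in each NL and c-MYC library and 1353 to 2163 reads in c-MYC/FOXO1AAA. That level was at least 459-fold higher than 3 reads per c-MYC library would give and at least 242-fold higher than 3 reads per NL library would give. Foxa2, a pioneer factor of hepatocytes, was 1.27 ± 1.26 FPKM in c-MYC/FOXO1AAA against 30.2 ± 9.14 in NL (limma adjusted p = 0.00011). Without c-MYC/FOXO1AAA 3 its mean was 0.541 FPKM, and the log2 fold change lay between -5.76 and -4.55 on leaving out any 1 library. Without NL 1 the NL mean of Foxj1 was 0.408 FPKM in place of 0.671.

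The genes nearest in pattern to each member were found over all 10 libraries as those with the smallest root mean square difference of centred log2 values. The closest pair was Foxo3 with Ube4b, at 0.0613, with Ube4b at 21.4, 17.8 and 15.7 FPKM in NL, c-MYC and c-MYC/FOXO1AAA. Scfd1 at 0.108 and Lrp6 at 0.109 were among the 3 genes nearest to Foxo4. Foxn3 was nearest to Psme4 at 0.0974, Foxj3 to Cdc42se1 at 0.0974 and Foxk1 to Arid2 at 0.101, all of them patterns of small steps. Foxk2 was nearest to Srf at 0.169, Foxo1 to Hdac7 at 0.184 and Foxp1 to Samhd1 at 0.188. Sesn1, one of the listed FOXO targets, came second for Foxp1 at 0.196, with 7.34, 9.60 and 49.3 FPKM in the 3 groups. Foxm1 was nearest to the replication genes Asf1b at 0.200 and Mcm5 at 0.204, with Kif20a, one of its listed targets, next at 0.243. Foxq1 had the loosest match, with the liver enzyme gene Hal at 0.435, then Gckr and Upb1, each highest in NL. The 10 libraries fall into 3 groups, so these likenesses describe group patterns and carry no test.

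Promoter windows of 250 bases before a RefSeq start (GRCm38.p6) were available for 6 of the 10 members, with 8 windows in all. Foxo4, Foxm1, Foxk1 and Foxq1 had no window, so the counts below do not cover them. The RefSeq starts of Foxj3, Foxn3 and Foxo3 and the 3 of Foxp1 lie inside the gene bounds given above, so these windows are not at the outermost start. The FOXO site GTAAACA, searched on both strands, was in 0 of these 8 and in 3.17% of 32851 mouse promoters. The E-box CACGTG was in 0 of 8 and in 6.02% of promoters. The cell cycle element TTTGAA, searched on both strands, was in 2 of 8, a window of Foxp1 and that of Foxn3, and in 16.0% of promoters. These counts cover only these letters in these windows.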

How the data were processed

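The members and gene lists were chosen with earlier results of these data known. Total RNA was sequenced from 10 libraries, grouped by sample title. The authors counted reads by gene, analysed them in R with edgeR and deposited log2 FPKM with a prior count of 2. Per the submitters' processing notes the build was GRCm38 and reads were checked with FastQC 0.11.7. The aligner and annotation are not given in the sources used here, and the labels name either poly(A) capture or removal of ribosomal RNA without saying which. Of 17069 rows, 372 name no gene and were left out.

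Whole reads and gene lengths were recovered from the deposited log2 values, with a single length for 99.97% of 16697 genes, and tested on simulated data. Low FPKM include the prior count. Depth was 13123719 to 20547746 reads per library, and counting error is smallest for deep genes. Lower bounds set at 3 reads per library reflect counting error alone.

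The 14017 genes that reached 1 FPKM in 3 or more libraries were fitted with limma 3.58.1 (R 4.3.3), all groups sharing a spread. The count model of the study was not used because the unit is not a count. Its treat function set a null of up to a 1.5-fold change, 2-sided, with Benjamini-Hochberg adjusted p under 0.05 called. Within-library ratios used exact 2-sided permutation tests. Alternatives covered pseudocounts, filters, scalings, the fold threshold, the groups fitted, a replicate block and leaving out each library. Limma voom on recovered reads and the longest coding length were chosen after seeing the data.

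All members are named in each comparison. From each other list, the called gene with the largest change in each direction is named, with a group mean of at least 1 FPKM. For likeness, the 3 nearest tested genes were taken. Sequences come from GENCODE M21 transcripts. Some genes and sequences that these rules would name are not reported here.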

Additional observations from a re-analysis of the deposited data

How the results depend on the processing

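The number of members called in c-MYC versus NL went from 2 to 7 with the same FPKM total and to 6 with no fold-change threshold, and in c-MYC/FOXO1AAA versus c-MYC from 4 to 7 with no fold-change threshold, which tests for any change. With the same FPKM total, log2 fold changes turned for Foxo1, Foxo3 and Foxn3 in c-MYC versus NL (0.58, 0.70 and 0.21), for Foxo3 between tumours (0.07), and for Foxo3, Foxo4 and Foxn3 in c-MYC/FOXO1AAA versus NL (0.77, 0.16 and 0.09). Under quantile normalization the values between tumours turned for Foxo3 (0.06) and Foxm1 (0.07), and for Foxo3 the values on leaving out any 1 library ran from -0.19 to 0.01, turning without c-MYC 2. The Foxk1 to Foxk2 ratio of c-MYC versus NL was -0.16 to 0.09 on leaving out any 1 library, against -0.01, and rose above 0 without c-MYC 3, NL 1 or NL 2. Over 30 member comparisons and 21 alternatives each, 591 of 630 values kept their direction and side of the threshold, 11 lost the call, 18 gained it and 10 turned.

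Same-numbered libraries did not deviate together (correlations of -0.04 to 0.027, 0 of 9 pairs over 0.1), so no pairing by number showed in the values. The check cannot exclude that same-numbered samples were collected or handled together. With the replicate number as a block, 2, 4 and 9 members were called, and 0 member calls changed.

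Foxm1 in NL rests on 9 to 53 reads and Foxq1 in c-MYC/FOXO1AAA on 12 to 39, so their levels there are the least precise. Most marker sums of other cell types differ between groups, and group and tissue makeup cannot be told apart.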
